A study of Mus musculus with 4 samples.

Results

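Proteins bound for the plasma membrane or for secretion fold in the endoplasmic reticulum (ER), where chaperones, disulfide isomerases and lectins handle them, and where misfolded chains are passed back to the cytosol for degradation (ERAD). When folding lags, the sensors IRE1 (encoded by *Ern1*), PERK (*Eif2ak3*) and ATF6 start the unfolded protein response. It slows translation through PERK and changes transcription through factors such as XBP1, ATF4 and CHOP (*Ddit3*). Hepatocytes make most plasma proteins and carry a large ER, and this response is known for its links to lipid handling in liver. The 37 genes described here were listed by name as ER folding and unfolded protein response genes, with results of these arrays already known, and the probe that stands for each gene was chosen by its mean intensity, the highest among the tested probes of the gene. All 37 had a probe, 44 probes in all, out of 19752 named genes on the array, and all 37 were among the 13167 named genes tested. The signal of every one of the 37 passed the software's flag for being well above background in both genotypes, on 4 of 4 arrays. No rule on fold change chose the genes, but the comparison of genotypes is the one the list was drawn up beside, so counts over the list are given as a description.

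Liver RNA of *Rap1*-/- mice was set against liver RNA of wild-type mice on 4 Agilent 2-colour arrays. *Rap1*, the gene *Terf2ip*, encodes a telomere-binding protein that also binds other chromosomal sites. The knockout is whole-body and constitutive. It was made by deleting floxed *Rap1* alleles with a *cre* recombinase under the adenovirus *EIIa* promoter, and the *cre* allele was bred out afterwards. Both genotypes had the C57BL6/129SV background (90%:10%) and are labelled 30 weeks old, with no sex given. The study's results describe females of a somewhat older age, and its methods give standard chow unless another diet is named. On 3 arrays, those of replicates 1, 2 and 3, the *Rap1*-/- RNA was labelled with Cy5 and the wild-type RNA with Cy3. On a further array the dyes were swapped, and its number in the labels, 1, ties it to replicate 1. Ratios are log2 of *Rap1*-/- over wild-type on every array, with the sign of the swap turned, and levels are normalized log2 intensities of a channel, which compare samples for 1 probe and not genes with each other.

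Facts of the arrays bear on every value below. The arrays of replicates 1 to 3 correlated with each other over the 13167 named genes (r between 0.545 and 0.811), while the dye swap, sign turned, correlated with them at -0.147, -0.228 and -0.219. The wild-type channel was nearly the same on the arrays of replicates 1, 2 and 3 (r between 0.998 and 0.999 over named genes). Its spots differed between 2 arrays by a median absolute deviation of 0.0816 to 0.0908 on the log2 scale, no more than the 0.092 to 0.104 by which repeated spots of a probe differed within an array. In the *Rap1*-/- channel the same comparison gave 0.259 to 0.367 between arrays and 0.0938 to 0.0998 within. The wild-type RNA of these 3 arrays therefore differed by less than the noise of a spot and is counted as 1 sample, although the series describes 3 biological replicates of each genotype. Neither the labels nor the methods say whether it was a pool. The p-values over 3 pairs below rest on 3 *Rap1*-/- livers, with the swap averaged into replicate 1 alone. A difference between dye orientations therefore stays in part in the fold change over 3 pairs and enters its SE. That SE is not the spread between livers alone. All p-values leave out the spread between wild-type animals. In the targeted gene, the *Terf2ip* probe A_52_P381806 had log2 ratios of -1.74, -1.92 and -1.91 on the arrays of replicates 1 to 3 and -1.68 on the dye swap, and its signal passed the background flag on 0 of 4 arrays for *Rap1*-/- liver and on 4 of 4 for wild-type liver. The other *Terf2ip* probe, A_55_P2094079, had ratios of 1.17, 1.07, 0.88 and 0.72 in the same order, and the files do not say which part of the transcript either probe covers. All 8 hepatocyte markers were well above background.

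Promoters are shown first because they hold the sequence through which much of this response is known to act. ATF6, together with the factor NF-Y, binds the ER stress response element, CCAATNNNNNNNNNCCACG. In the 250 bases before the start, on either strand, this element was found in 9 of the 32 genes with a promoter entry in the RefSeq table of build GRCm38.p6 (28.1%), against 35 of 27025 genes in the whole table (0.13%). These 9 are shown, read along the gene's strand, with the CCAAT and CCACG parts, or their reverse complements ATTGG and CGTGG, in capitals.
*Hspa5*, chr2:34772025-34772043, + strand: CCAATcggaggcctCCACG
*Syvn1*, chr19:6046532-6046550, + strand: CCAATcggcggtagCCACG
*Dnajc3*, chr14:118937827-118937845, + strand: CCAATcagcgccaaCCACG
*Pdia6*, chr12:17266491-17266509, + strand: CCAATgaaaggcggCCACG
*Canx*, chr11:50325800-50325818, - strand: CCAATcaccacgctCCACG
*Hsp90b1*, chr10:86705638-86705656, - strand: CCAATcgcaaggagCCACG
*Hsp90b1*, chr10:86705533-86705551, - strand: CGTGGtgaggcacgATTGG
*Creld2*, chr15:88819520-88819538, + strand: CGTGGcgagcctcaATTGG
*Derl3*, chr10:75893242-75893260, + strand: CGTGGgacttccccATTGG
*Calr*, chr8:84847075-84847093, - strand: CGTGGtcgaccctcATTGG

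The second form of the element, ATTGGNCCACG, was found in 1 of the 32 genes, *Herpud1*, and in 10 genes of the whole table (0.037%). The C/EBP-ATF element TGATGNAA, which ATF4 binds, was found in 3 of the 32 (*Asns*, *Chac1* and *Herpud1*) and in 1056 genes overall (3.91%). The XBP1 element TGACGTGG was found in none of the 32, and in 163 genes overall (0.603%). The 120 bases before the start of *Hspa5* and *Herpud1* show how these elements lie, in capitals, for the chaperone BiP and for a gene that carries 2 of the elements. A match here is a run of letters and no evidence of binding. *Atf6*, *Hyou1*, *Manf*, *Derl1* and *Sec61a1* had no entry.
*Hspa5*, chr2:34771970-34772089, + strand: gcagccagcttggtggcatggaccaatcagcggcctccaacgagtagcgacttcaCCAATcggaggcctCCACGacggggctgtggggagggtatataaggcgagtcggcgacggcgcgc
*Herpud1*, chr8:94386309-94386428, + strand: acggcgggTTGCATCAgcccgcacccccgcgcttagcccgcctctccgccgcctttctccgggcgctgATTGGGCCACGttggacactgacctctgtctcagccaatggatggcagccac

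The first question was whether the genes of this system were higher or lower in *Rap1*-deficient liver. With the dye swap averaged into replicate 1 (limma, 3 pairs, FDR under 0.15, the threshold of the study), 8 of the 37 genes were called higher and 10 lower, and 19 were not called. The same rule called 18.0% of the 13167 named genes higher and 16.1% lower, so 21.6% and 27.0% of the list lay near that background. The genes called higher were *Pdia4*, *Sdf2l1*, *Ern1*, *Hyou1*, *P4hb*, *Edem2*, *Canx* and *Sel1l*. Those called lower were *Ppib*, *Trib3*, *Pdia3*, *Dnajb11*, *Sec61b*, *Atf4*, *Edem1*, *Sec61a1*, *Calr* and *Hsp90b1*. The median log2 fold change was -0.13 over the 37 genes and 0.0049 over all named genes. Array by array, the median ratio of the 37 was 0.05, -0.20 and -0.32 for replicates 1, 2 and 3 and -0.02 for the dye swap, so it was below 0 on 3 of 4 arrays. The counts moved when a liver was left out, and so did those over all 27513 tested probes, of which 9488 were called over 3 pairs. Without replicate 2, no gene of the 37 was called in either direction and 7 probes were called in all, although 11 of the 37 had an unadjusted p under 0.05. Without replicate 3, 4 of the 37 were higher and 2 lower (2735 probes called), and without replicate 1, 6 were higher and 17 lower (12596 probes called). The fit without replicate 1 also lacked the swap, while those without replicate 2 or 3 kept it. With only the swap left out, 9 were higher and 14 lower (14496 probes called). In these counts the liver left out and the dye orientation cannot be told apart. The split also moved with the scaling, to 9 higher and 3 lower with median centring in place of loess (6472 probes called) and to 6 higher and 15 lower in the authors' value table (10022 probes called).

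**Figure D1:**
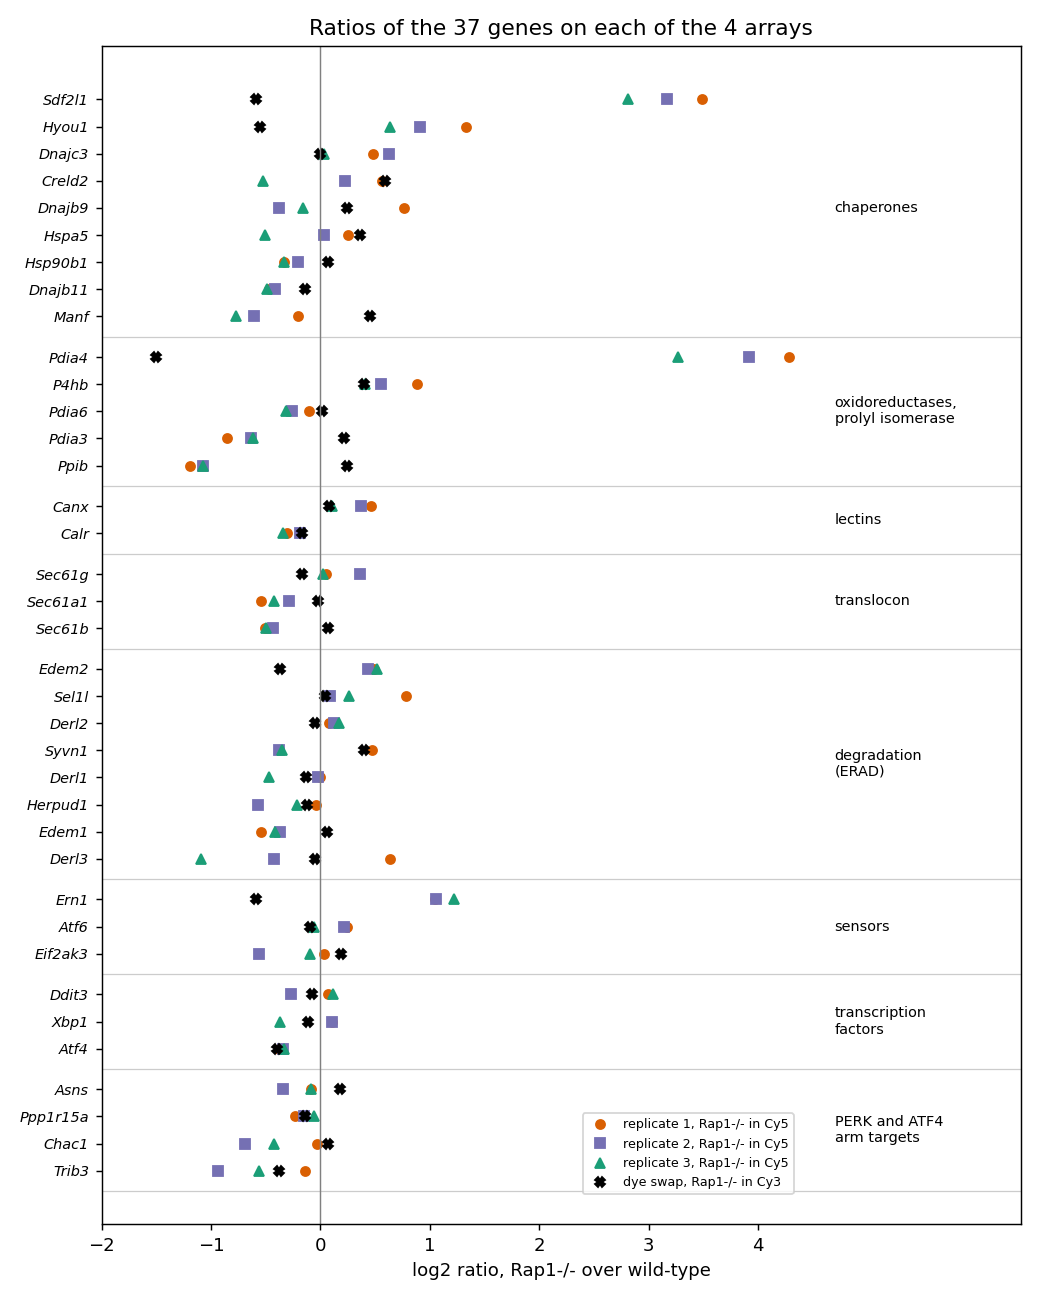
Log2 ratio of *Rap1*-/- over wild-type (horizontal axis) for each of the 37 genes (rows, grouped by role and ordered by fold change), with 1 mark for each array. The marks of the dye swap lie on the other side of 0 from the 3 other arrays for *Pdia4*, *Sdf2l1*, *Hyou1* and *Ern1*, and beside them for *Atf4* and *P4hb*.

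The dye swap gave other ratios than the arrays of replicates 1 to 3 for many of these genes. There is 1 such array, so what belongs to it and what belongs to the dye orientation cannot be told apart. On the dye swap, 16 of the 37 genes (43.2%) had the sign of their mean over the 3 other arrays, against 39.3% of all named genes. Of the 28 genes with 1 direction on all 3 arrays with *Rap1*-/- RNA in Cy5, 17 had the opposite sign on the swap, a count not made over all named genes. Of the 18 called genes, 8 had the same sign on the swap, 3 higher and 5 lower. Over all named genes, 831 of the 2376 called higher and 947 of the 2120 called lower had the same sign there, so the list lay near that background. A fit with a dye term beside the genotype took the 4 arrays as independent, so that the liver of replicate 1 entered it 2 times if the swap is of that liver, and its p-values count 4 arrays and not 3 livers. It called 3 of the 37 higher (*P4hb*, *Pdia4* and *Sdf2l1*) and 3 lower (*Atf4*, *Dnajb11* and *Ppib*), and 3.71% of all named genes higher and 2.73% lower. The dye coefficient itself passed the threshold for 10 of the 37, 5 brighter in Cy5 and 5 dimmer, against 14.0% and 12.8% of all named genes. With the swap taken as a replicate of its own, none of the 37 was called, 13 had an unadjusted p under 0.05, and 0.106% and 0.235% of all named genes were called higher and lower. In direction alone, 3 genes were higher on 4 of 4 arrays (*P4hb*, *Canx* and *Sel1l*), and 8 were lower on 4 of 4 (*Trib3*, *Dnajb11*, *Atf4*, *Sec61a1*, *Herpud1*, *Calr*, *Derl1* and *Ppp1r15a*). That is 8.1% and 21.6% of the list, against 10.4% and 11.4% of all named genes.

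**Figure D2:**
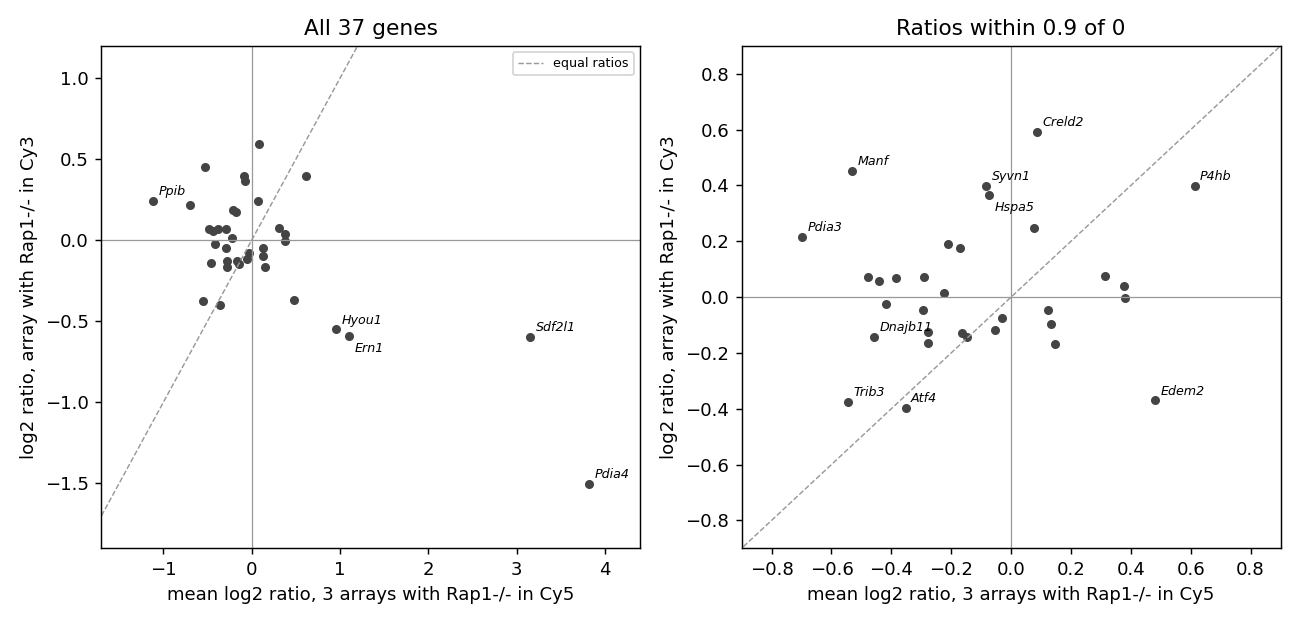
Each point is 1 of the 37 genes: the horizontal axis is its mean log2 ratio over the 3 arrays with *Rap1*-/- RNA in Cy5, the vertical axis its ratio on the array with *Rap1*-/- RNA in Cy3, and the dashed line marks equal ratios. The left panel shows all genes and the right panel those within 0.9 of 0. *Pdia4* (3.83 and -1.50) and *Sdf2l1* (3.16 and -0.59) lie far below the line, *Atf4* (-0.35 and -0.40) lies on it, and 16 of 37 points share a sign on both axes.

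A comparison within a dye avoids setting Cy5 against Cy3. The Cy5 levels of the 3 *Rap1*-/- livers were set against the wild-type Cy5 level of the swap, and the *Rap1*-/- Cy3 level of the swap against the wild-type Cy3 mean of the 3 other arrays. Both differences use the swap, have 1 sample on one side and run between arrays, so they carry no test. Of the 37 genes, 9 were higher in *Rap1*-/- liver in both dyes (24.3%), 16 lower in both (43.2%) and 12 mixed, against 30.2%, 27.6% and 42.2% of all named genes. All 10 genes called lower were among the 16, and 5 of the 8 called higher were among the 9. The differences within a dye and the calls come from the same arrays, so this overlap is in part built in. It is no separate check of the calls, and the same overlap was not counted over all named genes. *Sdf2l1*, *Edem2* and *Sel1l* were the called genes with mixed signs.

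Oxidoreductases and the prolyl isomerase form disulfide bonds and turn proline bonds in the ER. *Pdia4* (probe A_51_P328300) encodes a disulfide isomerase known as ERp72. Its level in *Rap1*-/- liver was 11.3, 11.1 and 10.2 on the arrays of replicates 1, 2 and 3 and 7.63 on the swap, against 7.01, 7.23, 6.92 and 9.13 in wild-type liver. The Cy5 channel was the brighter on 4 of 4 arrays, whichever genotype it held, and the groups overlapped through the swap alone. The log2 ratios were 4.29, 3.92 and 3.27, with -1.50 on the swap, which gave a fold change of 2.86 ± 0.46 on the log2 scale (SE, limma, adjusted p = 0.0402). With a dye term it was 1.16 ± 0.19 (adjusted p = 0.0713). Within a dye, *Rap1*-/- liver read higher by 1.75 in Cy5 and by 0.575 in Cy3, and all 3 *Rap1*-/- livers lay above the wild-type RNA in Cy5.

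*P4hb*, which encodes protein disulfide isomerase itself, gave much the same ratio in either orientation. Its ratios were 0.88, 0.55 and 0.40 on the arrays of replicates 1 to 3 and 0.40 on the swap. The level was 13.9 ± 0.26 in the 3 *Rap1*-/- livers (SD, n = 3) and 13.3 in the wild-type RNA, and no *Rap1*-/- value overlapped a wild-type value on the 4 arrays. The log2 fold change was 0.53 ± 0.09 (SE, limma, adjusted p = 0.0402), and 0.51 ± 0.11 with a dye term (adjusted p = 0.116).

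*Ppib*, the ER cyclophilin that turns proline bonds, was lower on 3 arrays. Its ratios were -1.19, -1.08 and -1.07, with 0.25 on the swap, for a log2 fold change of -0.875 ± 0.145 (SE, limma, adjusted p = 0.0402) and of -0.43 ± 0.08 with a dye term (adjusted p = 0.0776). Its Cy5 level was 13.2 ± 0.04 in the *Rap1*-/- livers (SD, n = 3) against 13.6 in the wild-type RNA of the swap, and its Cy3 level was 13.9 against 14.4, so it was lower in both dyes. *Pdia3*, the isomerase that works with the lectins, followed the same pattern with ratios of -0.85, -0.63 and -0.61 and 0.22 on the swap. Its log2 fold change was -0.52 ± 0.10 (limma, adjusted p = 0.0432), and -0.24 ± 0.09 with a dye term (adjusted p = 0.239). *Pdia6* was not called and was below 0 on the 3 arrays, at -0.10, -0.26 and -0.32. Its other probe, A_51_P297968, was dimmer and not called, with 0.30, 0.01 and -0.29 on the same arrays.

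**Figure D3:**
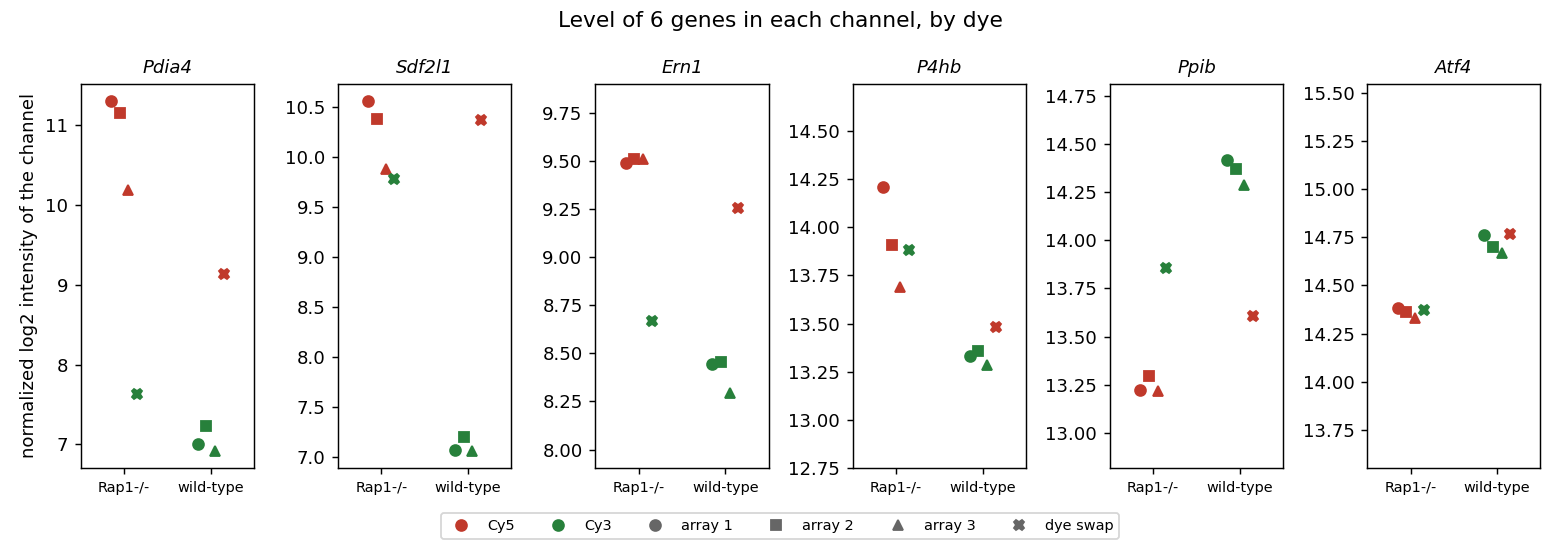
Normalized log2 intensity (vertical axis, a scale of its own in each panel) of 6 genes in the *Rap1*-/- channel (left in each panel) and the wild-type channel (right), coloured by dye, with a mark shape for each array. For *Pdia4* and *Ern1* the red Cy5 marks lie high in both genotypes, for *Ppib* they lie low, and for *P4hb* and *Atf4* the genotypes separate whichever dye they carry.

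Among the chaperones, which bind unfolded chains, 2 of 9 were called higher and 2 lower (22.2% each, beside 18.0% and 16.1% of all named genes). *Sdf2l1*, an ER protein that works with the DNAJ co-chaperones of BiP, had ratios of 3.49, 3.17 and 2.81, and -0.59 on the swap. Its level in *Rap1*-/- liver was 10.6, 10.4 and 9.87 on the 3 arrays and 9.77 on the swap, against 7.07, 7.20, 7.07 and 10.4 in wild-type liver. The log2 fold change was 2.48 ± 0.33 (SE, limma, adjusted p = 0.0402), and 1.28 ± 0.14 with a dye term (adjusted p = 0.0356), although within Cy5 *Rap1*-/- liver was different by -0.10 and within Cy3 by 2.66. Its wild-type Cy5 level on the swap was 3.25 above the wild-type Cy3 mean of the other arrays, so the dye term and the comparison within a dye rest on that array. *Hyou1*, a large HSP70 relative of the ER, had ratios of 1.33, 0.91 and 0.64 and -0.55 on the swap, and a log2 fold change of 0.64 ± 0.12 (limma, adjusted p = 0.0426). With a dye term its fold change was 0.20 ± 0.14 (adjusted p = 0.506).

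*Dnajb11*, a co-chaperone of BiP, was lower on 4 of 4 arrays, with ratios of -0.47, -0.42 and -0.48 and -0.14 on the swap. Its log2 fold change was -0.40 ± 0.09 (limma, adjusted p = 0.0490), and -0.30 ± 0.07 with a dye term (adjusted p = 0.135). *Hsp90b1*, which encodes the HSP90 of the ER (GRP94), had ratios of -0.34, -0.20 and -0.33 and 0.07 on the swap (adjusted p = 0.143 in limma). *Hspa5*, which encodes BiP, the main ER HSP70 and the usual readout of this response, was not called. Its ratios were 0.25, 0.03 and -0.51, and 0.37 on the swap, around 0 in a fit that gave -0.06 ± 0.17 (SE, limma, adjusted p = 0.835). *Manf*, a secreted ER stress protein, had -0.21, -0.61 and -0.77 on the 3 arrays and 0.45 on the swap (adjusted p = 0.174 in limma).

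The lectins calnexin and calreticulin hold glycoproteins until they fold, and the 2 genes moved apart. *Canx* was higher on 4 of 4 arrays, with ratios of 0.47, 0.37 and 0.10 and 0.08 on the swap (log2 fold change 0.25 ± 0.09, SE, limma, adjusted p = 0.131). *Calr* was lower on 4 of 4, with -0.30, -0.18 and -0.34 and -0.16 on the swap (log2 fold change -0.25 ± 0.08, adjusted p = 0.106). With the dye term in the fit, the adjusted p was 0.370 for *Canx* and 0.237 for *Calr*. Of the 3 subunits of the Sec61 translocon, through which chains enter the ER, *Sec61a1* (-0.54, -0.28, -0.43, and -0.02 on the swap) and *Sec61b* (-0.51, -0.43, -0.50, and 0.07 on the swap) were called lower in limma (adjusted p = 0.0653 and 0.0614). *Sec61g* was not called. The second *Sec61b* probe, A_66_P112593, was dimmer and not called, with a log2 fold change of -0.10.

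ERAD genes recognise, pull back and ubiquitinate misfolded chains. Of these 8, 2 were called higher (25%) and 1 lower (12.5%), beside 18.0% and 16.1% of all named genes. *Edem2*, which trims mannose from misfolded glycoproteins, had ratios of 0.49, 0.44 and 0.51 and -0.37 on the swap (adjusted p = 0.112 in limma), while its relative *Edem1* had -0.54, -0.37 and -0.42 and 0.06 on the swap (adjusted p = 0.0629). *Sel1l*, the adaptor of the ubiquitin ligase encoded by *Syvn1*, was higher on 4 of 4 arrays at 0.78, 0.09, 0.26 and 0.04 on the swap (log2 fold change 0.25 ± 0.10, adjusted p = 0.137). *Herpud1*, which organises the same ligase, was below 0 on 4 of 4 arrays (-0.04, -0.58, -0.21, and -0.12 on the swap) and was not called (limma, adjusted p = 0.155). *Derl1*, a channel component, was at -0.0021, -0.02, -0.47 and -0.13 in the same order and was not called either. The other *Derl1* probe, A_51_P217236, was dimmer and not called, at -0.03, -0.19 and -0.14 and 0.07 on the swap. *Derl2* was not called by its brightest probe (log2 fold change 0.10). Its dimmer probe A_55_P2178203 was called higher (0.29, adjusted p = 0.108 in limma), and its probe A_52_P84275 was not called (0.03). *Derl3* spanned the widest range, with 0.63, -0.42 and -1.09, and -0.05 on the swap (adjusted p = 0.308 in limma).

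The 3 sensors gave 1 call, higher, beside 18.0% of all named genes called higher. *Ern1* had ratios of 1.05, 1.06 and 1.22, close to each other, and -0.59 on the swap, for a log2 fold change of 0.84 ± 0.20 (SE, limma, adjusted p = 0.0590) and of 0.26 ± 0.08 with a dye term (adjusted p = 0.196). The Cy5 part of its ratio, 0.85 ± 0.08, was larger than its genotype part. Within a dye it was higher in *Rap1*-/- liver by 0.25 in Cy5 and by 0.27 in Cy3. *Eif2ak3* (0.03, -0.57, -0.10, and 0.19 on the swap) and *Atf6* (0.24, 0.21, -0.06, and -0.10 on the swap) were not called (limma, adjusted p = 0.405 and 0.595), and their ratios lay on both sides of 0.

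Of the transcription factors, *Atf4* was called lower over 3 pairs and with a dye term. The level of its brighter probe, A_55_P1979728, was 14.4, 14.4 and 14.3 in the *Rap1*-/- livers and 14.4 on the swap, against 14.8, 14.7, 14.7 and 14.8 in wild-type liver, with no overlap. The ratios were -0.38, -0.34 and -0.34, and -0.40 on the swap, for a log2 fold change of -0.35 ± 0.08 (SE, limma, adjusted p = 0.0535) and of -0.37 ± 0.07 with a dye term (adjusted p = 0.0933). It was not called without replicate 2 (adjusted p = 0.332 in limma), without replicate 3 (0.177), or with the swap as its own replicate (0.237), and with median centring the fold change was -0.16 (adjusted p = 0.464). The other *Atf4* probe, A_51_P464238, disagreed: it gave 0.98, 0.90 and 0.86 on the 3 arrays and -0.79 on the swap, was called higher over 3 pairs (0.62, adjusted p = 0.0794), and stood at 0.06 with a dye term (adjusted p = 0.725). ATF4 is controlled at translation, which these arrays do not measure. *Xbp1* (0.10, 0.11, -0.37, and -0.12 on the swap) and *Ddit3* (0.07, -0.27, 0.11, and -0.08 on the swap) were not called (limma, adjusted p = 0.619 and 0.743), and these probes do not report the splicing of *Xbp1*.

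Targets of PERK and ATF4 gave 1 call in 4, lower, beside 16.1% of all named genes called lower. *Trib3*, a pseudokinase induced by ATF4 and CHOP, was lower on 4 of 4 arrays, with ratios of -0.14, -0.94 and -0.56 and -0.37 on the swap (log2 fold change -0.58 ± 0.14, SE, limma, adjusted p = 0.0600, and -0.46 ± 0.16 with a dye term, adjusted p = 0.224). *Ppp1r15a*, the phosphatase subunit that reverses the translation block, was slightly below 0 on 4 of 4 arrays (-0.23, -0.15, -0.06, and -0.14 on the swap) and was not called (limma, adjusted p = 0.308). *Chac1*, which breaks down glutathione, had -0.03, -0.69 and -0.43, and 0.07 on the swap (adjusted p = 0.151), and *Asns*, asparagine synthetase, was not called at -0.13 ± 0.10.

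Several of the same genes read differently on the arrays of the 3 *Rap1*-/- livers. The spread of their ratios lay in the *Rap1*-/- channel, since the wild-type channel hardly moved. On these 3 arrays the *Rap1*-/- RNA was always in Cy5 and the wild-type RNA always in Cy3. A difference between livers and a difference between arrays in Cy5 therefore cannot be told apart here. The median SD of the level over the 3 arrays was 0.24 for the 37 genes in *Rap1*-/- liver and 0.04 in the wild-type RNA, against 0.15 and 0.06 for all named genes. The wild-type SD is that of repeated measurements of what is counted as 1 sample, so the *Rap1*-/- SD, over 3 livers, is no measure of a difference in spread between the genotypes. The 10 genes with the largest SD, picked after their values were seen, were *Derl3*, *Dnajb9*, *Pdia4*, *Creld2*, *Syvn1*, *Trib3*, *Chac1*, *Hyou1*, *Sdf2l1* and *Sel1l*, with SDs from 0.807 down to 0.354. All 10 were highest in the liver of replicate 1, and over the whole list 24 of 37 were (64.9%), against 39.5% of all named genes.

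*Creld2*, an ER stress protein with an element above, read 13.8, 13.5 and 12.7 in the livers of replicates 1, 2 and 3, a range of 2.13-fold, against a range of 0.008 on the log2 scale in the wild-type RNA. *Derl3*, a retrotranslocation protein, read 8.79, 8.10 and 7.18, a range of 3.05-fold, against 8.16, 8.52 and 8.27 in the wild-type RNA. *Dnajb9*, a co-chaperone and a known XBP1 target, read 11.0, 9.88 and 10.04, and *Syvn1* read 14.3, 13.4 and 13.4, each with replicate 1 above the wild-type RNA (10.2 and 13.8) and the others below it. *Hspa5* had a smaller range, with 15.7, 15.5 and 15.1 against 15.5, 15.5 and 15.7 in the wild-type RNA. Replicate 2 was slightly above the wild-type RNA (15.533 against 15.501), and replicate 3 alone was below it. The range of *Hspa5* on the log2 scale was 0.56 in *Rap1*-/- liver and 0.199 in the wild-type RNA. The other *Dnajb9* probe, A_66_P133450, was dimmer and did not show replicates 2 and 3 below the wild-type RNA. It read 7.89, 7.60 and 7.56 against 7.515, 7.43 and 7.33 in the wild-type RNA, above it in all 3 livers. The SD of its 3 ratios was 0.10, against 0.61 for the probe above, and its ratio on the swap was -0.005. All 9 genes with the ER stress response element had their lowest level in the liver of replicate 3, as did 9 of the 23 genes with a promoter entry and no such element, 4 of the 5 genes with no entry, and 41.4% of all named genes. *Herpud1*, which has the second form of the element, was lowest in the liver of replicate 2. This contrast was seen in the data and was not tested, and some of the orders were close. The lowest and next levels were 14.698 and 14.716 for *Hsp90b1*, 12.817 and 12.849 for *Calr*, and 13.387 and 13.401 for *Syvn1*. These gaps were below the median absolute deviation of 0.0938 to 0.0998 between repeated spots of a probe. The swap, tied to replicate 1 by its number, had positive ratios for *Creld2* (0.59), *Syvn1* (0.40), *Hspa5* (0.37) and *Dnajb9* (0.25), as the array of replicate 1 did (0.56, 0.48, 0.25 and 0.77). For *Derl3* (-0.05), *Hyou1* (-0.55), *Sdf2l1* (-0.59) and *Pdia4* (-1.50) the swap was below 0 where the array of replicate 1 was above it. Over the 37 genes the swap correlated at 0.045 with the deviation of replicate 1 from the others, and at 0.292 without *Pdia4* and *Sdf2l1*.

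**Figure D4:**
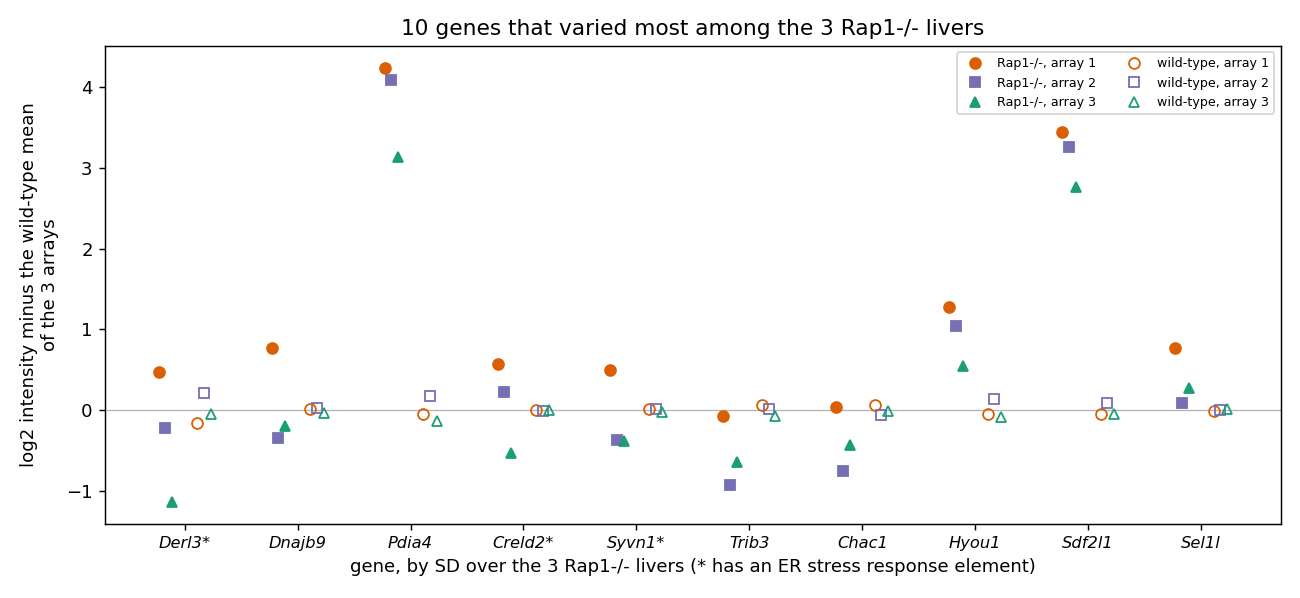
Level of the 10 genes with the largest SD among the 3 *Rap1*-/- livers, as log2 intensity minus the wild-type mean of the 3 arrays (vertical axis). Filled marks are *Rap1*-/- and open marks wild-type, and an asterisk marks genes with the ER stress response element. The wild-type marks bunch near 0 while the *Rap1*-/- marks spread, and the mark of array 1 is the highest of the *Rap1*-/- marks for all 10 genes.

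Cell type markers also read differently on the arrays of these livers. The summed signal of hepatocyte markers had log2 ratios of 0.43, 0.40 and 0.22 for replicates 1, 2 and 3 and -0.355 on the swap, that of sinusoidal endothelial markers 0.375, 0.43 and 0.32 and -0.15, that of stellate cell and fibroblast markers -0.03, 0.16 and 0.72 and 0.13, and that of cholangiocyte markers 0.34, -0.06 and 0.19 and 0.37. The summed signal of 6 Kupffer cell and macrophage markers ranged from 22800 to 80181 in *Rap1*-/- liver and from 35043 to 38000 in wild-type liver, with log2 ratios of -0.74, 0.11 and 1.19 for replicates 1, 2 and 3 and -0.21 on the swap. Of 5 adipocyte markers, 2 were well above background and *Lep* was at background on every array, and their sum ranged from 364 to 1409 in *Rap1*-/- liver and from 400 to 466 in wild-type liver, with log2 ratios of 1.60, 0.20 and -0.23 and 1.48 on the swap. Pancreatic acinar markers, which would bring secretory pathway transcripts, were well above background for 5 of 14, with *Prss1*, *Pnlip* and *Cela2a* among those at background on every array and log2 ratios of their sum between -0.07 and 0.24. Plasma and B cell markers, from another cell type with a large ER, had log2 ratios of 0.86, 0.505 and 0.50, and 0.04 on the swap. The part of these cells in the values of the 37 genes was not tested. In whole tissue, fewer cells of a type and less RNA per cell cannot be told apart. RNA integrity numbers were 6.6 to 8.7 over all samples and are not split by genotype.

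Other genes of the secretory pathway and of stress responses come from lists drawn up with earlier results of these data known. Their counts are a description, to be read beside the 18.0% of all named genes called higher and 16.1% lower. Of 53 other genes of ER folding, glycosylation and translocation, 10 were called higher (18.9%) and 13 lower (24.5%), with a median of -0.09. *Ssr4*, a translocon-associated protein, was lower on 4 of 4 arrays, at -0.41, -0.40, -0.64 and -0.15 on the swap (limma, adjusted p = 0.0553). Of 24 other ERAD genes, 5 were higher and 6 lower. On the swap, 4 of the 24 (16.7%) had the sign of their mean over the other arrays, against 39.3% of all named genes. *Rnf5*, a ubiquitin ligase of the ER, had 1.41, 1.23 and 1.24, and -0.39 on the swap (adjusted p = 0.0402).

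Of 47 other genes of the unfolded protein and integrated stress responses, 6 were higher (12.8%) and 4 lower (8.5%), with a median of 0.05. *Gdf15*, a secreted stress cytokine, was higher on 4 of 4 arrays, at 1.04, 0.51, 0.78 and 0.77 on the swap, with a log2 fold change of 0.73 ± 0.11 (SE, limma, adjusted p = 0.0402) and 0.77 ± 0.12 with a dye term (adjusted p = 0.0611). The Cy5 part of its ratio was 5e-04. Of 48 COPI, COPII and p24 genes, which move cargo between ER and Golgi, 12 were higher and 5 lower, led by *Tmed2*, a p24 cargo receptor, with 3.05, 3.09 and 3.17 and -0.85 on the swap (adjusted p = 0.0402). Of 24 cytosolic heat shock chaperones, 6 were higher and 2 lower (median 0.07). *Hspa8*, the constitutive cytosolic HSP70, was higher on 4 of 4 arrays, at 0.44, 0.97, 0.75 and 0.29 on the swap (adjusted p = 0.0426).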

How the data were processed

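Liver RNA was hybridised on 4 two-channel Agilent arrays. Scans were quantified by the authors with Feature Extraction, whose file headers give version 10.7.3.1 and the methods another. The deposited scans hold median and background intensities, processed intensities and log10 ratios of red (Cy5) over green. The authors' value table holds log2 ratios, credited to limma in the submitters' processing notes; its columns had medians of 0.000826 for the swap and -0.01, -0.02 and -0.02 for replicates 1 to 3, and the sign of the swap is already turned there. How it was background-corrected and normalized was not given in the sources used here.

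In limma 3.58.1 (R 4.3.3), normexp with an offset of 50 was applied to median intensities, followed by loess within arrays, control spots having weight 0. Repeated spots were averaged and the swap averaged with replicate 1. Testing required that a share of 0.5 or more of a probe's spots passed the background flag on all arrays for either genotype, which kept 27513 of 55681 probes (49.4%). Per channel, 50.1% to 56.4% of spots passed that flag and none was saturated. Precision is limited by having 4 arrays. limma (lmFit, eBayes) tested the mean over 3 pairs, with Benjamini-Hochberg adjustment over all tested probes, and, separately, genotype beside a dye term over 4 arrays. Arrays shared 1 slide and 1 scan. Through RefSeq accessions (GRCm38.p6), 26056 probes (46.8%) were named. Channel levels come from the loess ratios and quantile-normalized mean intensities. Both fits were run on simulated data with known changes. A dye part was simulated for the dye-term fit alone, so its effect on the 3-pair fit was not checked.

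The genes and lists were chosen with earlier results of these data known. Full values are given for the 12 genes with the largest fold changes, those with 1 sign on 4 arrays, the sensors and the factors, and of each other list for some of the 4 genes with the smallest p. The reading of the swap as replicate 1 rests on its label. Over the 764 named genes with an SD above 0.5 among the 3 arrays, 4 of them described here, the swap correlated at 0.267, -0.125 and -0.192 with the deviations of replicates 1, 2 and 3. Over all 13167 named genes these correlations were 0.105, -0.053 and -0.062, and over the 37 genes 0.045, -0.131 and 0.054. Without *Pdia4* and *Sdf2l1* they were 0.292, -0.048 and -0.302 over 35 genes. These values do not settle the reading.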

Additional observations from a re-analysis of the deposited data

Results flagged for a closer look

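For 10 of the 37 genes the ratio differed between the 2 orientations of the dyes, by the dye coefficient of the 4-array fit (limma, log2, Cy5 over Cy3), which passed the FDR threshold. It was positive for *Pdia4* (2.66, adjusted p = 0.00611), *Sdf2l1* (1.87, adjusted p = 0.00611), *Ern1* (0.85, adjusted p = 0.00640), *Hyou1* (0.75, adjusted p = 0.0332) and *Edem2* (0.42, adjusted p = 0.0273). It was negative for *Ppib* (-0.68, adjusted p = 0.00931), *Manf* (-0.49, adjusted p = 0.0642), *Pdia3* (-0.46, adjusted p = 0.0332), *Sec61b* (-0.275, adjusted p = 0.0728) and *Edem1* (-0.25, adjusted p = 0.102). The coefficient rests on 1 array in the swapped orientation, so that array and the dye cannot be told apart.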

How the results depend on the processing

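Over 3 pairs, 8 of the 37 genes were called higher and 10 lower (9488 of the 27513 tested probes called). With the dye swap as a replicate of its own the counts were 0 and 0 (83 probes called), and with a dye term 3 and 3 (1844 probes called). Chosen after seeing the data, a dye term on the processed signals of the authors' software gave 2 higher and 1 lower (1562 probes called). The same on the authors' log2 values, also chosen then, gave 2 higher and 3 lower (1699 probes called). Median centring in place of loess left 3 lower. Leaving out each replicate gave 0 to 6 higher, 0 to 17 lower and a median of -0.25 to -0.06, and the lowest counts, 0 and 0, came without replicate 2. The fit without replicate 1 also lacked the swap. All other alternatives run stayed within 1.5 times the counts over 3 pairs. The median over the 37 genes, -0.13, was 0.04 with median centring and below 0 in every other alternative.

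Of the 24 genes with full values, 15 lost their call with the swap as its own replicate, 9 with a dye term, 5 with median centring, 15 without replicate 2, 9 without replicate 3 and 2 without replicate 1. Also, 3 did with the processed signals (*Sel1l*, *Canx* and *Calr*), 2 with the value table (*Sel1l* and *Canx*) and 1 with no filter on dim probes (*Sel1l*).

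Directions turned only for genes that were not called. Leaving out each replicate gave -0.333 to 0.0053 for *Eif2ak3*, -0.137 to 0.0545 for *Ddit3* (both highest without replicate 2) and -0.188 to 0.0499 for *Xbp1* (highest without replicate 3). With median centring *Ppp1r15a* (0.0418), *Xbp1* (0.10) and *Ddit3* (0.14) were above 0. *Atf6* was below 0 with the processed signals (-0.0299) and in the value table (-0.0396). The cause was not tested. Every fit pairs the genotypes by array, since both lie on 1 array and enter as its ratio, so no unpaired fit was run. With 3 livers and 1 wild-type RNA, a p cannot speak for the spread between wild-type animals.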
